A study of Homo sapiens with 7 samples.

Results

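Of the 19336 RNA polymerase II (Pol II) peaks mapped on chromosomes 1 to 22 of BJAB cells, 2282 were overlapped by both an SPT5 and an O-GlcNAc peak and by no peak of TRIM28 or OGA. They made up 11.8% of the Pol II peaks (95% Wilson interval 11.4% to 12.3%) and are called O-GlcNAc sites without TRIM28. BJAB is a human B-cell line established from a Burkitt's lymphoma, and the label gives its passage as multiple. All libraries came from this line with no treatment or genotype named in the labels. Cells were fixed with 1% formaldehyde for 5 min, and chromatin immunoprecipitation followed by sequencing (ChIP-seq) was run with 1 antibody per library: 8WG16 for Pol II, antibodies to SPT5, TRIM28 and NCOAT (another name of OGA), and RL2 for O-GlcNAc. Mouse and rabbit IgG libraries belonged to the series and were not analysed here. Each target had 1 library and 1 peak list, so no difference below has a replicate check or a test, and the intervals cover counting error only.

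Pol II that has begun to transcribe often halts shortly after the start of a gene. SPT5, a subunit of the DSIF complex, takes part in this pause and stays with the polymerase as it moves on through the gene. O-GlcNAc is a single sugar that the enzyme OGT puts on serine and threonine residues of proteins in the nucleus and cytoplasm and that OGA takes off. The repeats at the tail of the largest Pol II subunit, which 8WG16 recognises, are among the known carriers of this sugar, and so are many transcription factors. RL2 recognises the sugar on many proteins, so an RL2 peak does not name the protein that carries it. TRIM28, for which the series title uses the name TIF1b, is a co-repressor brought to DNA by KRAB zinc finger proteins, and that title counts it with SPT5 as a pausing factor. The question addressed here was how Pol II sites with SPT5 and O-GlcNAc look where TRIM28 and OGA were not called.

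The sites were chosen from the overlaps themselves. SPT5 lay at 18462 of the 19336 Pol II peaks (95.5%), and SPT5 and O-GlcNAc together at 7787 (40.3%). Of those 7787, TRIM28 overlapped 5459 (70.1%), OGA without TRIM28 overlapped another 46 (0.591%), and 2282 (29.3%, interval 28.3% to 30.3%) had neither. The sites drew on 2143 of 8988 O-GlcNAc peaks (23.8%) and on 2116 of 54885 SPT5 peaks (3.86%), so that some neighbouring sites share a peak and are not independent. They are set beside 3 other classes of Pol II peaks that also had SPT5 and no OGA: 4600 with SPT5 only, 5501 TRIM28 sites without O-GlcNAc, and 4910 O-GlcNAc sites with TRIM28. Heights and widths of the overlapping peaks were part of what fixed the classes, since a wide peak offers more bases for an overlap, and the values are given as a description. Where a Pol II peak had several overlapping peaks of a target, the highest was used.

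The rule turns on single bases at its edge. The shortest O-GlcNAc overlap that admitted a site was 1 bp, on chromosome 8 at 145638632 to 145639077, and the next was 3 bp, on chromosome 18 at 39535202 to 39535455. Under 50 bp of O-GlcNAc overlap was present at 58 of the 2282 sites. The shortest SPT5 overlaps were far longer, 123 bp at chromosome 19, 2840976 to 2841215, and 134 bp at chromosome 8, 144451012 to 144451218. The nearest TRIM28 peaks that still left a site inside the rule lay 2 bp away, at chromosome 19, 42784152 to 42784719, and at chromosome 2, 178077393 to 178077926. On the other side of the line, Pol II peaks at chromosome 15, 43882142 to 43882485, and chromosome 19, 9930216 to 9930566, were kept out by 1 bp of TRIM28 each.

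The label of these sites as free of TRIM28 held for the Pol II peak but not always for its surroundings. A TRIM28 peak lay within 1 kb of 500 sites (21.9%, interval 20.3% to 23.7%), and the share among all Pol II peaks without TRIM28 was 26.7%. At 285 sites (12.5%) the O-GlcNAc peak itself reached a TRIM28 peak outside the Pol II peak, and at 394 (17.3%) the SPT5 peak did. Neither a TRIM28 nor an OGA peak lay within 1 kb of 1778 sites (77.9%). The TRIM28 peaks that kept the 4910 O-GlcNAc sites with TRIM28 out of the rule had a median fold enrichment of 2.93 (2.90 to 2.95), against 3.49 over the whole TRIM28 list. By q and width they were not lower: their median −log10 q was 7.19, against 6.96 over the whole list, and their median width 395 bp, against 304 bp. A −log10 q under 5 was found for 26.8% of them and for 30.8% of the whole list. With a −log10 q of at least 5 required in every list, the class grew to 3294 Pol II peaks and kept 2081 of the 2282 sites. Of the 1213 peaks that it gained, 1191 had been O-GlcNAc sites with TRIM28.

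Pol II peaks at O-GlcNAc sites without TRIM28 were of middle height and width. Fold enrichment, the authors' ratio of a peak to its background, had a median of 5.49 at these sites (lowest 1.83, highest 24.4), 3.54 at sites with SPT5 only, 4.46 at TRIM28 sites without O-GlcNAc and 6.89 at O-GlcNAc sites with TRIM28. The interval of the first median, 5.39 to 5.60, lay apart from those of the other classes, 3.49 to 3.59, 4.37 to 4.53 and 6.79 to 6.99. The median width was 474 bp (456 to 497 bp) at O-GlcNAc sites without TRIM28, 363 bp with SPT5 only, 507 bp at TRIM28 sites without O-GlcNAc and 696 bp at O-GlcNAc sites with TRIM28. Pol II peaks wider than 1000 bp made up 125 of the sites (5.48%, 4.62% to 6.49%), 4.54% of those with SPT5 only (3.98% to 5.18%), 12.4% of TRIM28 sites without O-GlcNAc, 18.8% of O-GlcNAc sites with TRIM28 and 11.6% of all Pol II peaks.

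SPT5 peaks at the sites were high, second to those at O-GlcNAc sites with TRIM28. Their median fold enrichment was 8.37 (8.20 to 8.63) at O-GlcNAc sites without TRIM28, 5.66 at sites with SPT5 only, 6.42 at TRIM28 sites without O-GlcNAc and 9.19 at O-GlcNAc sites with TRIM28. SPT5 peaks wider than 2 kb covered 215 sites (9.42%, 8.29% to 10.7%), 1140 of those with SPT5 only (24.8%), 12.3% of O-GlcNAc sites with TRIM28 (11.4% to 13.2%) and 17.6% of all Pol II peaks with SPT5. O-GlcNAc peaks had a median fold enrichment of 4.44 (4.34 to 4.53) where TRIM28 was not called and 3.90 (3.85 to 3.98) where it was, a difference of 0.533 (0.409 to 0.641). It was 0.202 (0.00448 to 0.400) with the SPT5 and TRIM28 lists cut to as many peaks as O-GlcNAc has, where 5323 Pol II peaks met the rule. Their widths were close, with medians of 428 bp (420 to 438 bp) without TRIM28 and 419 bp (414 to 426 bp) with it.

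**Figure D1:**
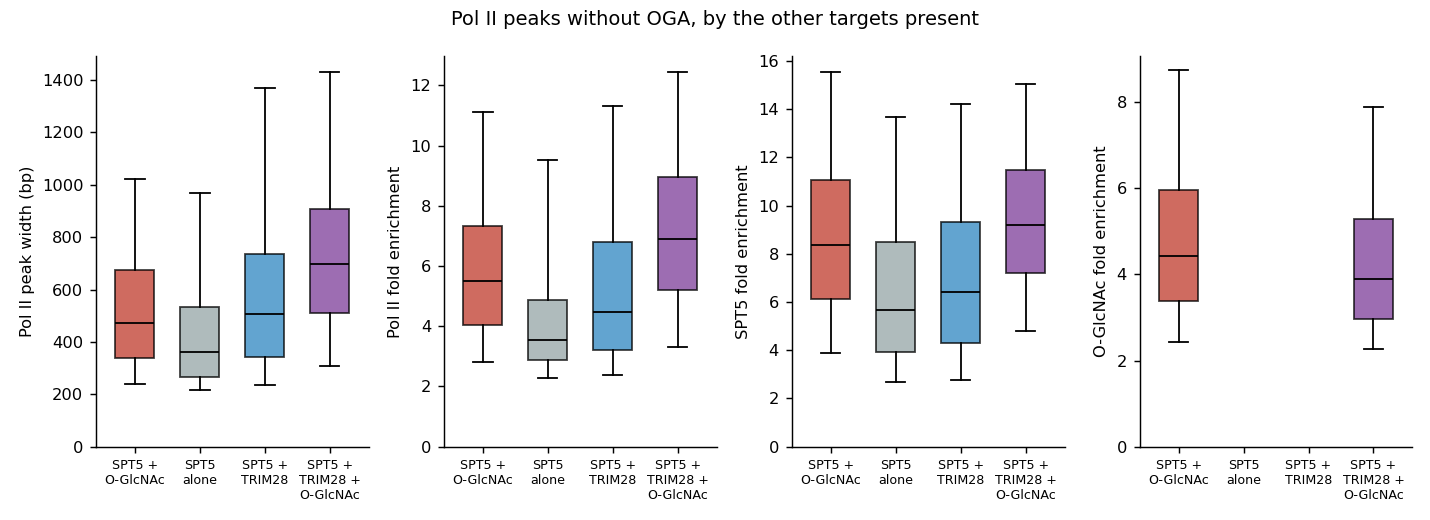
Pol II peak width in bp and the authors' fold enrichment of Pol II, SPT5 and O-GlcNAc peaks (vertical axes) at Pol II peaks without OGA, by the other targets present. Boxes show quartiles with the median as a line, and whiskers reach the 5th and 95th percentiles. O-GlcNAc sites without TRIM28, at the left of each panel, have a median Pol II fold enrichment of 5.49 and a median O-GlcNAc fold enrichment of 4.44.

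Because the classes differed in Pol II height, the values were also read within deciles of Pol II fold enrichment. The share of Pol II peaks that were O-GlcNAc sites without TRIM28 was 5.02% in the lowest decile (4.13% to 6.08%), 17.1% in decile 7 (15.5% to 18.8%) and 10.5% in the highest (9.21% to 11.9%). The share was thus greatest among peaks of middle height. At matched Pol II height, the median SPT5 fold enrichment was higher at O-GlcNAc sites without TRIM28 than at sites with SPT5 only in all 10 deciles, by 0.474 to 2.40. It was higher than at TRIM28 sites without O-GlcNAc in all 10 deciles too, by 0.163 to 1.54. Against O-GlcNAc sites with TRIM28 it was higher in 6 deciles and lower in 4. The O-GlcNAc peaks were higher without TRIM28 than with it in all 10 deciles, by 0.111 to 0.818 in median fold enrichment.

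Width behaved otherwise. The excess of 111 bp in median Pol II width over sites with SPT5 only (92.0 to 135 bp) was a weighted mean of 15.6 bp within deciles, with 5 deciles higher and 5 lower. It was 212 bp when peaks within 500 bp of each other were merged. Pol II peaks of O-GlcNAc sites without TRIM28 were narrower than those with TRIM28 in all 10 deciles, by 31 to 205 bp. A narrow peak leaves less room for a TRIM28 overlap, and how much of this difference the rule itself made was not tested.

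**Figure D2:**
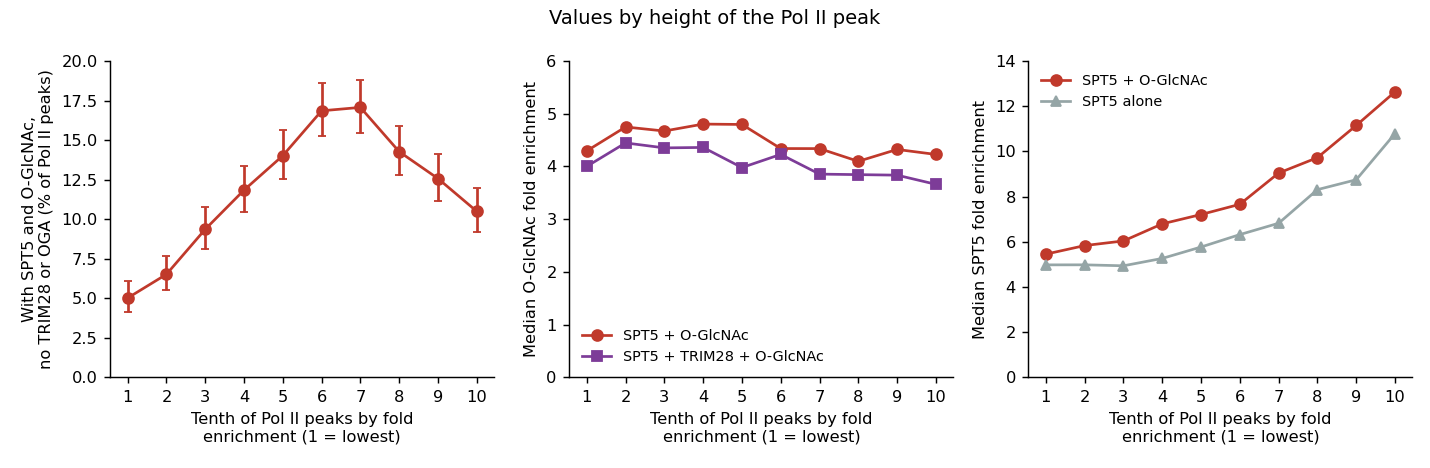
Share of Pol II peaks that are O-GlcNAc sites without TRIM28, with 95% Wilson intervals (left), median O-GlcNAc fold enrichment (middle) and median SPT5 fold enrichment (right), by decile of Pol II fold enrichment from the lowest, 1, to the highest, 10. The share is greatest in decile 7 at 17.1%, and the lines of O-GlcNAc sites without TRIM28 lie above those of O-GlcNAc sites with TRIM28 (middle) and of sites with SPT5 only (right) in all 10 deciles.

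Within the sites, Pol II and SPT5 heights went together and O-GlcNAc height went with neither. Across the 2282 sites, Spearman's rho was 0.58 between Pol II and SPT5 fold enrichment, −0.09 between Pol II and O-GlcNAc and −0.03 between SPT5 and O-GlcNAc. Pearson's r of the log2 values was 0.58, −0.07 and −0.01 for the same pairs. At O-GlcNAc sites with TRIM28, rho was 0.60, −0.10 and −0.06, so these relations were not particular to sites without it. These coefficients describe sites that share 3 libraries, and the depth of the libraries is unknown.

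Single sites ranged widely in these heights. By Pol II, the highest lay on chromosome 2 at 121832369 to 121833141, where Pol II had a fold enrichment of 24.4, SPT5 one of 15.5 and O-GlcNAc one of 2.74. Its nearest TRIM28 peak was 20684 bp away, and its O-GlcNAc summit lay 59 bp from the Pol II summit. The other 4 of the 5 highest by Pol II, with fold enrichments of 18.5 to 18.7, lay at chromosome 19, 47291466 to 47292196, chromosome 12, 57912940 to 57914494, chromosome 6, 111279570 to 111280341, and chromosome 5, 173615009 to 173615783. Their O-GlcNAc fold enrichments were 2.91, 5.03, 3.71 and 3.63 in that order, of which only the second was above the median of 4.44. The chromosome 12 site had a TRIM28 peak 5 bp away, and its O-GlcNAc peak reached that TRIM28 peak.

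By SPT5, the highest site was on chromosome 11 at 118965706 to 118966362, where SPT5 had a fold enrichment of 28.1, Pol II one of 15.9 and O-GlcNAc one of 9.36. It sat near one end of an SPT5 peak 3042 bp wide, and a second Pol II peak 228 bp away shared that SPT5 peak. Of the 5 highest by SPT5, 3 lay on chromosome 11, the other 2 of them at 118901321 to 118901725 (SPT5 fold enrichment 22.7) and 117777779 to 117778518 (22.5). The remaining 2 were at chromosome 8, 146017470 to 146018173 (23.8), and chromosome 19, 13842307 to 13842819 (22.5).

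By O-GlcNAc, the highest site was a narrow Pol II peak of 229 bp on chromosome 19 at 6199881 to 6200109. O-GlcNAc had a fold enrichment of 18.5 there, Pol II one of 3.27 and SPT5 one of 8.35, and the site ranked 14951 of 19336 by Pol II. The next was also on chromosome 19, at 35168169 to 35168594, with 17.3 for O-GlcNAc, 3.88 for Pol II and 6.62 for SPT5. At chromosome 11, 1330568 to 1331168, by contrast, O-GlcNAc of 14.3 met Pol II of 10.9 and SPT5 of 14.02. The last 2 of the 5 were at chromosome 12, 132195636 to 132195842 (12.7), with TRIM28 21 bp and OGA 54 bp away, and at chromosome 8, 146277820 to 146278072 (12.7).

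**Figure D3:**
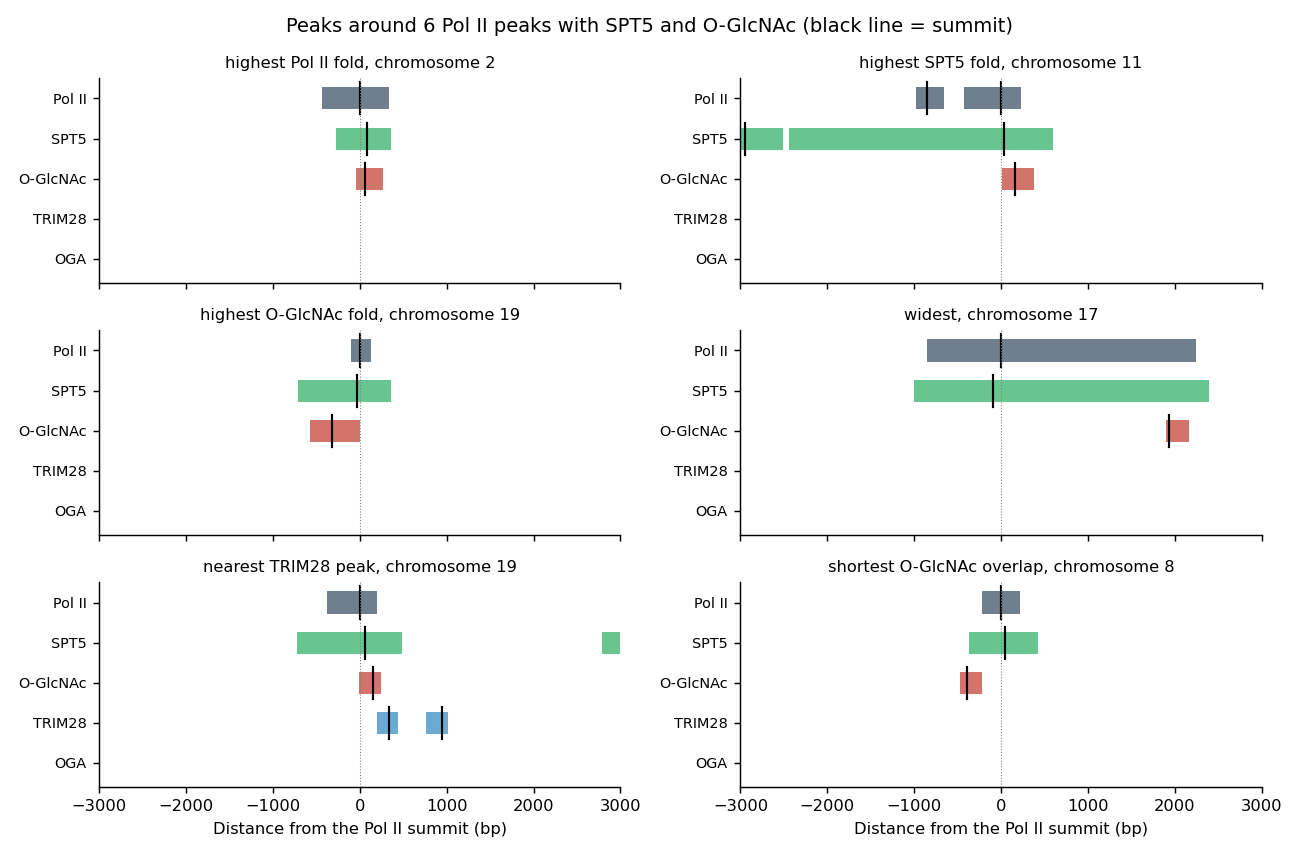
Peaks of the 5 targets around 6 O-GlcNAc sites without TRIM28, named in each title by the reason for the choice. The horizontal axis is the distance from the Pol II summit in bp, bars are peaks and black lines are summits. The O-GlcNAc summit lies beside the Pol II summit, 59 bp from it at the chromosome 2 site and 323 bp at the chromosome 19 site with the highest O-GlcNAc, and within the span drawn TRIM28 peaks appear only at the site chosen for its nearest TRIM28 peak.

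The O-GlcNAc summit stood beside Pol II, while the SPT5 summit stood on it. The median distance from the Pol II summit to the O-GlcNAc summit was 160 bp (157 to 165 bp, quartiles 110 and 228 bp), against 27 bp (25 to 29 bp) to the SPT5 summit. SPT5 summits lay within 50 bp of the Pol II summit at 1504 sites (65.9%), and 60.7% of all Pol II peaks with SPT5 had one so close. O-GlcNAc summits lay within 50 bp at 179 sites (7.84%, 6.81% to 9.02%), close to the 7.63% of all Pol II peaks with both marks. Between 100 and 250 bp from the Pol II summit lay 1329 of them (58.2%), against 58.1% at O-GlcNAc sites with TRIM28. With TRIM28 the median was 165 bp (163 to 168 bp), and the difference of −5 bp had an interval of −9.24 to 0.385 bp. When a TRIM28 or OGA peak within 1 kb counted as present, the difference was −17 bp (−22.4 to −12 bp). That setting redrew both classes, so the class with TRIM28 was not the one with the median of 165 bp.

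O-GlcNAc lay mostly to the side on which SPT5 was displaced. The O-GlcNAc and SPT5 summits were on the same side of the Pol II summit at 1753 sites (76.8%, 75.04% to 78.5%), on opposite sides at 498 (21.8%), and a summit coincided with that of Pol II at 31 (1.36%). The background over all Pol II peaks with SPT5 and O-GlcNAc was 77.3%, so this arrangement was shared by peaks with TRIM28. At 601 sites the SPT5 summit was 100 bp or more away, with a median of 418 bp. There O-GlcNAc was on the same side at 552 (91.8%, 89.4% to 93.8%), and at 457 (76.0%) its summit lay between those of Pol II and SPT5. Over all Pol II peaks with both marks and SPT5 so far away the shares were 90.8% and 74.1%, so this too was general to such peaks. In these 457 it stood a median of 54.97% of the way from Pol II to SPT5 (52.1% to 57.7%). Among sites with another Pol II peak within 500 bp, the third quartile of the SPT5 distance was 488 bp. Among sites with none within 5 kb it was 49 bp, and the part of close pairs in this placement was not tested. Where the SPT5 summit was under 50 bp away, the same side was shared at 1031 of 1496 sites without TRIM28 (68.9%, 66.5% to 71.2%) and at 73.2% of those with it (71.7% to 74.7%). The files carry no strand, so the direction of transcription at a site is not given.

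**Figure D4:**
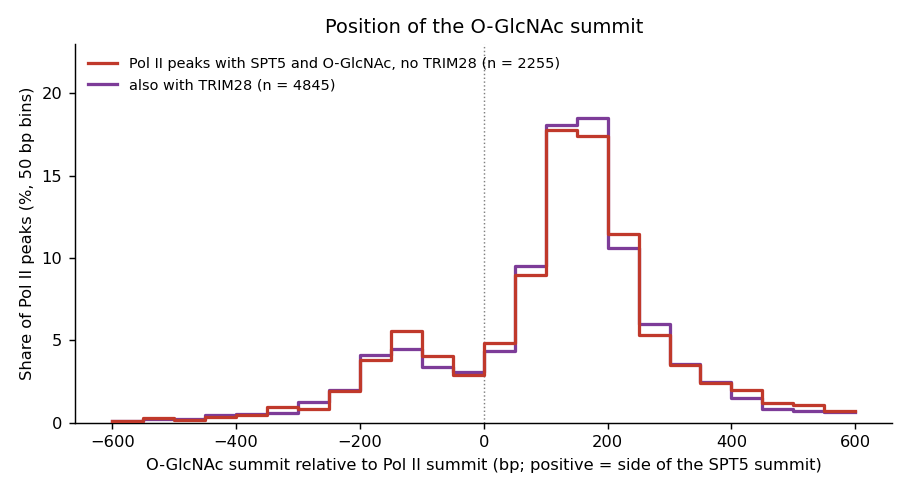
Position of the O-GlcNAc summit relative to the Pol II summit in bp, in 50 bp bins, turned so that the SPT5 summit lies on the positive side. Lines give the share in percent of Pol II peaks with SPT5 and O-GlcNAc without TRIM28 (red) and with it (purple), and sites whose SPT5 summit coincides with that of Pol II are left out. Both lines have their main peak between 100 and 200 bp toward SPT5 and a lower one on the opposite side.

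Close pairs of Pol II peaks were not particular to these sites. Another Pol II peak lay within 500 bp of 768 sites (33.7%, 31.7% to 35.6%), against 29.8% of all Pol II peaks, and within 2 kb of 862 (37.8%), against 40.6% of all. With SPT5 only the shares were higher, 40.7% within 500 bp and 56.7% within 2 kb. They were 26.7% and 40.8% at TRIM28 sites without O-GlcNAc, and 24.5% and 30.0% at O-GlcNAc sites with TRIM28. The nearest partner was itself an O-GlcNAc site without TRIM28 in 362 of the 768 (47.1%) and an O-GlcNAc site with TRIM28 in 238 (31.0%). Over all paired Pol II peaks with SPT5 and O-GlcNAc, the partner was an O-GlcNAc site without TRIM28 in 28.3%. O-GlcNAc sites with TRIM28 likewise had a partner of their own class in 43.3%. The O-GlcNAc summit pointed toward the partner in 642 (83.6%, 80.8% to 86.0%), and the share over all such paired Pol II peaks with SPT5 and O-GlcNAc was 78.9%. The SPT5 summit pointed that way in 601 (78.3%, 75.2% to 81.0%), against 75.8% over all such peaks.

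At some of these pairs a single O-GlcNAc peak bridged both Pol II peaks. Of the 2143 O-GlcNAc peaks at the sites, 407 (18.99%) overlapped exactly 2 Pol II peaks, whose summits stood a median of 538 bp apart (513 to 555 bp). The O-GlcNAc summit lay between the Pol II summits in 395 of these (97.1%, 94.9% to 98.3%), a median of 37.3% of the way from the nearer one. A peak that reaches both neighbours covers the gap between them, so its construction places the summit there in part. Both Pol II peaks were O-GlcNAc sites without TRIM28 in 176 of the 407. Bridging was not counted for the other O-GlcNAc peaks, so it is not shown to be particular to these sites.

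Paired and lone sites differed in the spacing of the summits, both without TRIM28 and with it. At the 768 paired sites the median distance from Pol II to O-GlcNAc was 220 bp (211 to 227 bp), and at the 1292 sites with no other Pol II peak within 5 kb it was 137 bp (133 to 143 bp). At O-GlcNAc sites with TRIM28 these medians were 218 bp (211 to 225 bp) and 151 bp (147 to 154 bp). The SPT5 summit was a median of 88.5 bp from Pol II at paired sites (53 to 169 bp) and 21 bp at lone ones (20 to 23 bp). With TRIM28 it was 35 bp (31 to 40 bp) and 19 bp (18 to 21 bp). The common side of O-GlcNAc and SPT5 was seen at lone sites too, where it held at 976 of the 1292 (75.5%, 73.1% to 77.8%). Among lone O-GlcNAc sites with TRIM28 the share was 77.4% (75.9% to 78.8%).

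The O-GlcNAc peak of these sites reached past the Pol II peak more often than where TRIM28 was present. Its summit was inside the Pol II peak at 1455 sites (63.8%, 61.8% to 65.7%), against 3981 of the 4910 O-GlcNAc sites with TRIM28 (81.1%, 79.96% to 82.2%), whose Pol II peaks were wider. It was inside the SPT5 peak at 2159 sites (94.6%) without TRIM28 and at 97.8% with it. The 3 widest sites had a far longer spacing. At chromosome 17, 18964743 to 18967838, a Pol II peak of 3096 bp, the O-GlcNAc summit lay 1935 bp from that of Pol II. At chromosome 8, 12611350 to 12614038, and chromosome 11, 118661406 to 118663990, the distance was 1680 and 1620 bp.

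Beyond their own overlaps, the sites mostly stood farther from other peaks than sites with SPT5 only, and so did O-GlcNAc sites with TRIM28. A further TRIM28 summit lay within 5 kb of 33.9% of the sites, 31.6% of O-GlcNAc sites with TRIM28 and 55.8% of those with SPT5 only. Close by there was little difference: a TRIM28 peak lay within 500 bp of 17.8% of the sites (16.3% to 19.4%) and 18.9% of those with SPT5 only (17.8% to 20.0%). The median gap to the nearest TRIM28 peak was 10927.5 bp (10004 to 12231 bp) at O-GlcNAc sites without TRIM28 and 3324.5 bp (3009 to 3638 bp) at sites with SPT5 only. An OGA peak lay within 10 kb of 82 sites (3.59%, 2.90% to 4.44%), 594 of those with SPT5 only (12.9%, 11.97% to 13.9%), 4.70% of O-GlcNAc sites with TRIM28 (4.15% to 5.33%) and 8.83% of all Pol II peaks without OGA. A further SPT5 summit lay within 5 kb of 951 sites (41.7%), 68.9% of those with SPT5 only, 46.6% of O-GlcNAc sites with TRIM28 and 56.6% of all Pol II peaks. A further O-GlcNAc summit lay within 5 kb of 236 sites (10.3%, 9.16% to 11.7%), 18.3% of those with SPT5 only, 7.88% of O-GlcNAc sites with TRIM28 (7.16% to 8.67%) and 12.3% of all Pol II peaks. Peaks that overlap the Pol II peak were left out of the counts of further summits. Sites with SPT5 only had no O-GlcNAc peak to leave out, and the part of this rule in the contrast was not tested. The median gap to the nearest other Pol II peak was 9465.5 bp at O-GlcNAc sites without TRIM28, 1002 bp with SPT5 only and 15355 bp at O-GlcNAc sites with TRIM28, and the part of this crowding in the other gaps was not tested.

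Chromosome 19 held the most of these sites in number and as a share of its Pol II peaks, a lead that depended on how TRIM28 and the base of the share were taken. There 311 of 1393 Pol II peaks (22.3%, 20.2% to 24.6%) met the rule, against 1971 of 17943 on the other 21 autosomes (11.0%, 10.5% to 11.5%). O-GlcNAc was present at 56.8% of Pol II peaks on chromosome 19 and 39.1% elsewhere, and TRIM28 at 59.1% and 60.6%. Chromosomes 8 and 13 followed with 16.9% (14.4% to 19.9%) and 16.1% (12.7% to 20.2%). O-GlcNAc was present at 34.7% and 39.3% of the Pol II peaks on these 2 chromosomes, while TRIM28, at 44.4% and 47.0%, had the lowest shares of all 22 autosomes. Chromosome 7 had the lowest share of these sites, 7.12% (5.71% to 8.84%), and the highest share of Pol II peaks with TRIM28, 71.0%. With no TRIM28 or OGA peak allowed within 1 kb, chromosome 19 had 15.2%, chromosome 13 had 14.8% and chromosome 8 had 14.6%. As a share of Pol II peaks with SPT5 and O-GlcNAc, the sites made up 48.8% on chromosome 8, 41.0% on chromosome 13 and 39.5% on chromosome 19. Copy number along the BJAB genome was not analysed here.

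**Figure D5:**
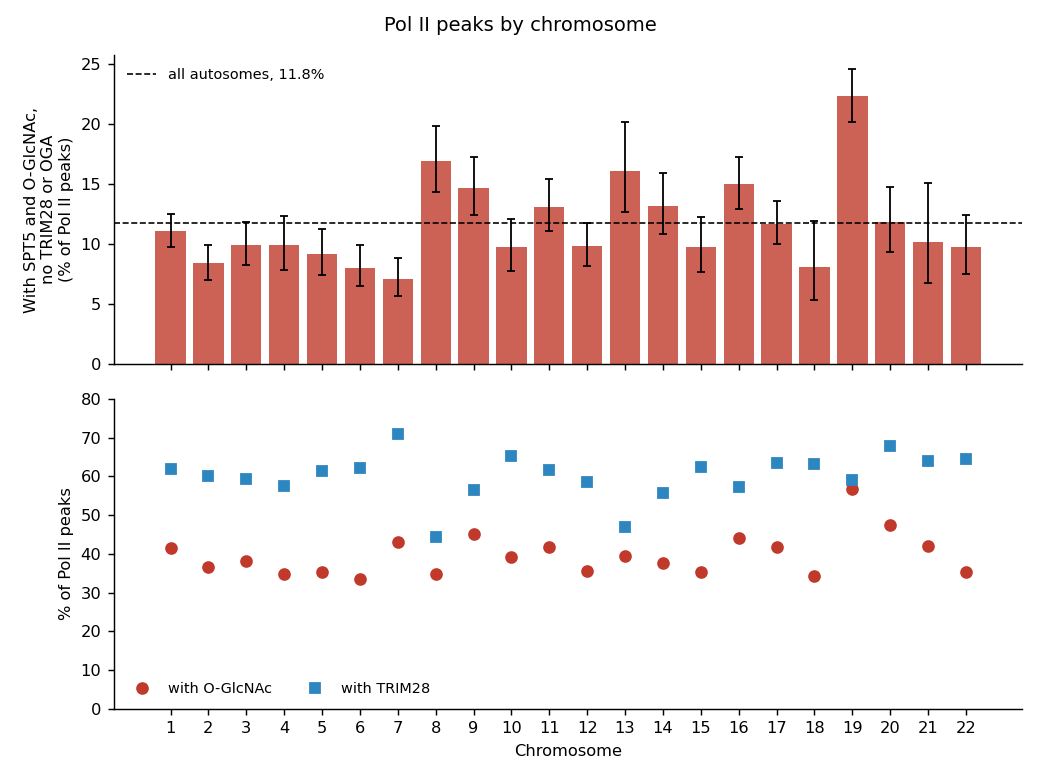
Share of Pol II peaks, in percent, that are O-GlcNAc sites without TRIM28 on each autosome, with 95% Wilson intervals and the share over all autosomes as a dashed line (top), and share of Pol II peaks with O-GlcNAc (circles) and with TRIM28 (squares) on the same chromosomes (bottom). Chromosome 19 stands at 22.3% with a high share of O-GlcNAc, and chromosomes 8 and 13 with the lowest shares of TRIM28.

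Along chromosome 19 the share was uneven. In windows of 5 Mb, chosen after the chromosome's value was seen, it was 39% from 55 Mb to the chromosome end (39 of 100 Pol II peaks, 30.0% to 48.8%) and 41.7% from 20 to 25 Mb (10 of 24, 24.5% to 61.2%). The other windows with 100 or more Pol II peaks had 17.4% to 27.4%. O-GlcNAc was present at 78% and 70.8% of Pol II peaks in these 2 windows, and TRIM28 at 49% and 29.2%. No gene was assigned to a peak here, so these shares cannot be tied to any kind of gene.

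The longest run of neighbouring Pol II peaks that all met the rule lay in the end window. From 57751630 to 58090312 on chromosome 19, 13 Pol II peaks in a row over 339 kb were O-GlcNAc sites without TRIM28, with no other Pol II peak among them. Their fold enrichments were 2.35 to 7.86 for Pol II, 4.28 to 14.4 for SPT5 and 2.62 to 10.7 for O-GlcNAc. They used 12 O-GlcNAc and 12 SPT5 peaks, and the O-GlcNAc summit lay 92 to 428 bp from that of Pol II, with a median of 161 bp. TRIM28 was not missing from the stretch: 8 TRIM28 peaks fell within it, and the nearest TRIM28 peak of each site was 3.69 to 87.8 kb away. The first of the run, a pair at 57751630 to 57751886 and 57751959 to 57752396, stood 72 bp apart and shared 1 O-GlcNAc peak of fold enrichment 6.40 and 1 SPT5 peak of 4.28. The third, at 57790994 to 57792152, had 3.45 for O-GlcNAc and 6.15 for SPT5.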

How the data were processed

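Peak lists of ChIP-seq libraries for Pol II, SPT5, O-GlcNAc, TRIM28 and OGA were used, 1 library per target, each precipitated with 10 µg of antibody. The submitters' processing notes name Bowtie2 2.1.0, Trimmomatic 0.30, bcl2fastq 2.17 and build hg19. The sources used here name no peak caller, control or threshold. Each peak, as the authors deposited it, has a fold enrichment (a ratio to their background), −log10 p and −log10 q values, a summit position and a score, which was not used. The smallest deposited −log10 q was 1.30 to 1.33 in the 5 lists. Fold enrichments were compared only within 1 list. Reads per library were not analysed, so depth is unknown.

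Overlap meant 1 bp or more. Shares have 95% Wilson intervals, medians order-statistic intervals, and differences of medians combine these. No test was made, and gaps run from edge to edge. Calculations were tested on simulated data and against bedtools 2.31.1, with Python 3.11.15, numpy 2.4.6, pandas 2.3.3, scipy 1.17.1 and matplotlib 3.10.9. The reference tables were of another build, so gene positions, sequence and motifs were not analysed here. The members, classes and measures were chosen with earlier results of these data known. Sites named are the 5 highest by Pol II, SPT5 and O-GlcNAc, the 3 widest, the first 3 of the longest run, and those at the edge of the rule. Alternatives covered the q threshold, overlap, distance to TRIM28, merging, chromosomes, list length, Pol II height and the summit taken.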

Additional observations from a re-analysis of the deposited data

How the results depend on the processing

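Of the alternatives, those of sites with no other Pol II peak within 5 kb and of all sites without chromosome 19 were added after seeing the data. No paired analysis was possible because each target had 1 library. The number of sites ranged from 1769 to 3294 under 6 alternatives, and was 5323 with the SPT5 and TRIM28 lists shortened to the O-GlcNAc length, where 3673 sites were gained, all with TRIM28 in the full lists. With that shortening the share of Pol II peaks was 27.5%, the Pol II to SPT5 distance 21 bp, and the differences were 79 bp in width and 1.46 in Pol II fold enrichment against sites with SPT5 only, and 0.202 in O-GlcNAc fold enrichment and −13 bp in summit distance against O-GlcNAc sites with TRIM28. A −log10 q of at least 5 gave a share of 19.1%, an SPT5 distance of 24 bp and differences of 1.78 in Pol II and 0.384 in O-GlcNAc fold enrichment. An overlap of 50% gave a share of 10.5%, an O-GlcNAc distance of 149 bp, an SPT5 distance of 24 bp and a width difference of 162 bp. No TRIM28 or OGA within 1 kb gave 9.20%, 151 bp, 24 bp and 154 bp for these, an O-GlcNAc fold difference of 0.394 and a distance difference of −17 bp. There a TRIM28 or OGA peak within 1 kb counted as present in the compared classes too. Merging within 500 bp gave 10.9%, 149 bp, 22 bp and 212 bp, and a distance difference of −14 bp. Within deciles of Pol II height the width difference was 15.6 bp and the difference in Pol II fold enrichment turned to −0.00377, by construction. Lone sites gave an O-GlcNAc distance of 137 bp, an SPT5 distance of 21 bp, and differences of 180.5 bp in width, 1.52 in Pol II fold enrichment and −14 bp in summit distance. Without chromosome 19 the share was 11.0%. Apart from these values the cause was not tested. The share of sites with O-GlcNAc and SPT5 on the same side stayed within its interval under the 8 alternatives run on it. The median gap to TRIM28 ranged from 10076 to 64020 bp. Depth is unknown, so a TRIM28 peak missed at low depth cannot be told apart from one that is absent.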

Other observations

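Among these sites, summit spacing and Pol II width changed steadily with O-GlcNAc height, and Pol II and SPT5 height were lowest where O-GlcNAc was tallest. With the 2282 sites split into 4 equal groups by O-GlcNAc fold enrichment, from low to high, the median distance from the Pol II to the O-GlcNAc summit was 126, 146.5, 172 and 192 bp, and the median Pol II width was 571, 512.5, 445.5 and 388 bp. The O-GlcNAc peaks themselves had median widths of 286, 380, 479 and 571 bp. The median Pol II fold enrichment was 5.71, 5.75, 5.44 and 5.00 over the same groups, and the median SPT5 fold enrichment 8.56, 8.70, 8.46 and 8.02. Sites with the tallest O-GlcNAc thus had narrower Pol II peaks and a wider spacing. Wider O-GlcNAc peaks can overlap Pol II from farther away, and the part of this in the spacing was not tested. Pol II width also rose with Pol II fold enrichment across the sites (Spearman's rho 0.54), and the part of Pol II height in the widths was not tested. The split was not made for O-GlcNAc sites with TRIM28, so these trends are not shown to be particular to sites without it.

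Seen from the O-GlcNAc list, the share of its peaks that lay at these sites was 14.1% in the lowest decile of O-GlcNAc fold enrichment and 35.3% in the highest, while the share with any Pol II peak was 77.2% and 84.6% in these deciles.

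Runs of 5 or more neighbouring sites occurred at 4 other places. On chromosome 8 they were 6 Pol II peaks from 6565338 to 8086502 and 6 from 145550176 to 145639077, and no TRIM28 peak fell within the second of these, a stretch of 88.9 kb. On chromosome 19, 5 lay from 23257937 to 23870203, a stretch with 7 TRIM28 peaks, and on chromosome 9, 5 lay from 131790319 to 131874322, a stretch with 1. Most sites stood alone in this sense: 1387 of the 2282 had no neighbouring Pol II peak of the same kind. Runs of the other classes were not counted, so neither clustering nor isolation can be read from these counts.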
